A study of Ovis aries with 7 samples.

Results

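NRXN3, NLGN1, NEGR1, CADM1 and CADM2 encode proteins that hold synapses and neighbouring brain cells together. They were taken by symbol from the feature list of a single nuclei RNA-seq series of the sheep striatum, where each symbol matched 1 of 26479 features: NRXN3 (ENSOARG00020005395), NLGN1 (ENSOARG00020000438), NEGR1 (ENSOARG00020014000), CADM1 (ENSOARG00020023254) and CADM2 (ENSOARG00020002352). All 5 members were detected, with 212206, 1333359, 650991, 243454 and 124179 UMIs, in that order, over all libraries. All 5 passed the filter on low counts in each of the 11 cell classes in which OVT73 and control sheep were compared. The series covered 12 sheep that were all 5 years old, and no treatment was given to either group. OVT73 sheep carry a transgene of full-length human HTT cDNA with an expanded glutamine tract, driven by a human HTT promoter, and keep their own HTT genes. They are 1 transgenic line that models Huntington's disease, and the controls were wild-type sheep without the transgene. There were 3 OVT73 libraries, each of nuclei pooled from 2 sheep, and 4 control libraries, of which libraries 1 and 2 came from 1 sheep each and libraries 3 and 4 from 2 pooled sheep each. Both groups held animals of both sexes. The barcodes of pooled sheep were not split here, so the library is the unit of replication. The p-values measure the spread between these libraries. A pool of 2 sheep averages over both animals, and only the controls held libraries of 1 sheep. The tests made no allowance for this difference between the groups.

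Neurexins such as NRXN3 sit mainly in presynaptic membranes and bind several partners across the cleft, of which the neuroligins, NLGN1 among them, are the best known. NLGN1 is a postsynaptic protein of excitatory synapses that recruits scaffolds such as the product of DLG4. CADM1 and CADM2, also called SynCAM proteins, are immunoglobulin-type adhesion molecules that bind each other and themselves across the cleft and between other cells, and NEGR1 is a member of the IgLON family, small immunoglobulin-type proteins held to the membrane by a lipid anchor. In the striatum most neurons are medium spiny neurons (MSNs), inhibitory cells that receive glutamatergic input from cortex and thalamus and fall into a D1 and a D2 dopamine receptor type. The questions here were in which striatal cell classes each member was found and whether its level differed between OVT73 and control libraries.

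The libraries held 35272 barcodes, and 32599 nuclei were kept. Total UMIs were 27760110 to 70473426 in OVT73 and 20887378 to 27704528 in control libraries, and the median per kept nucleus was 2221 to 2562 and 1860 to 2170, so every OVT73 library was deeper per nucleus than every control library; the part of this difference in the results was not tested. The added human HTT feature had 342, 63 and 27 UMIs in OVT73 libraries 1 to 3 and 1 to 6 in the controls, which matched the labels. Of 29 clusters, the ones whose markers allowed it were given to 13 classes that hold 30469 nuclei, and each class name below means nuclei that resemble that type by its markers (D1 MSN-like and so on). Each library shared 27 to 78 barcodes with other libraries. Free RNA gives UMIs in nuclei that do not express a gene, so the summed level of 8 MSN markers in glia was used as a yardstick. Whether glia express some of these markers was not tested, so the sum can exceed the free RNA. As a percentage of its level in D1 MSN-like nuclei of the same library (median over libraries, as for all such percentages), that sum was 6.21% in oligodendrocyte-like, 4.64% in OPC-like, 3.77% in microglia-like, 2.97% in DTHD1/GPC3 astrocyte-like and 9.88% in astrocyte-like nuclei.

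The order of cell classes differed between members, least between CADM1 and CADM2. Levels are given as CPM, the UMIs of a gene scaled to a common total of all UMIs summed over a class in a library, as mean ± SD over 7 libraries, and they describe the classes without a test. Levels are set against each other within a gene only, since gene lengths were not used.

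NRXN3, the presynaptic member, was led by neuroblast-like nuclei, a class of immature neurons led here by NDST4 and ADARB2. Its level there was 4963 ± 1052 CPM and lay above the next class in all 7 libraries, with ranges that did not overlap. Eccentric MSN-like nuclei, a small MSN type marked by FOXP2 and OTOF, followed at 2101 ± 163 CPM, and PV/Th interneuron-like nuclei, named for parvalbumin and tyrosine hydroxylase and led here by TLL2 and KIT, at 1966 ± 333 CPM. These neighbours overlapped, as did the other interneuron-like class at 1481 ± 367 CPM and the SST/NPY interneuron-like class at 1423 ± 173 CPM. The main MSN types came next, with the D2 range overlapping that of SST/NPY interneuron-like nuclei. D2 MSN-like nuclei held 1250 ± 82.6 CPM and D1 MSN-like nuclei 976 ± 56.0 CPM, and D2 was above D1 in 7 of 7 libraries by a median ratio of 1.28 (range 1.23 to 1.32) and with no overlap. Cholinergic interneuron-like nuclei were the lowest neuronal class at 719 ± 164 CPM. Among glia, oligodendrocyte-like nuclei held 387 ± 119 CPM, which is 37.6% of the D1 level and above the 6.21% of the MSN yardstick. OPC-like nuclei, the oligodendrocyte precursors, held less, at 77.7 ± 18.4 CPM. That was 8.91% of the D1 level, also above the yardstick of 4.64% in that class. Several other neuronal classes held more NRXN3 than D1 MSN-like nuclei, so free RNA could give it a larger percentage than the MSN markers. Whether the OPC level exceeded free RNA was not tested. The mean in microglia-like nuclei was 97.0 CPM with an SD of 98.2 and a range of 6.15 to 268 CPM. This class joined a main cluster at 25.1 ± 19.0 CPM (range 6.17 to 57.5) and a small, variable one led by CD163 and MSR1. The small cluster held 971 ± 859 CPM over 4 libraries, so the class mean described neither.

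NLGN1, the postsynaptic partner, followed a different order. It was highest in D1 MSN-like nuclei at 9063 ± 751 CPM and next in D2 MSN-like nuclei at 7671 ± 686 CPM, with D1 above D2 in 7 of 7 libraries although the ranges overlapped. OPC-like nuclei held 7119 ± 680 CPM, a glial level that overlapped with that of the D2 type and lay above the following class in all 7 libraries with no overlap. Below them came the other interneuron-like class (4524 ± 1025 CPM), eccentric MSN-like nuclei (3693 ± 362 CPM), astrocyte-like nuclei (3266 ± 560 CPM) and DTHD1/GPC3 astrocyte-like nuclei (3194 ± 662 CPM), whose ranges overlapped from one to the next. The DTHD1/GPC3 class is a set of nuclei led by DTHD1 and GFAP that carried 8 of 9 astrocyte markers. NLGN1 thus differed among interneurons, with 1636 ± 189 CPM in PV/Th interneuron-like and 1261 ± 128 CPM in SST/NPY interneuron-like nuclei. Relative to PV/Th interneuron-like nuclei, the D1 level was 5.57 times as high (median over libraries, range 4.86 to 6.15). Microglia-like nuclei (116 ± 54.8 CPM) and oligodendrocyte-like nuclei (77.4 ± 38.8 CPM) held 1.32% and 0.838% of the D1 level, both under the MSN yardstick. The yardstick thus lay above the free RNA of NLGN1 in these classes. Whether these low levels were free RNA only could not be told. After every nucleus was thinned to 1000 UMIs, 9.84% of microglia-like and 7.53% of oligodendrocyte-like nuclei had an NLGN1 UMI, against 99.9% of D1 MSN-like nuclei.

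NEGR1, the IgLON member, was found in neurons and macroglia alike. Its highest means were 5062 ± 1227 CPM in SST/NPY interneuron-like, 4256 ± 795 CPM in the other interneuron-like and 4124 ± 781 CPM in PV/Th interneuron-like nuclei, and these ranges overlapped. Not all interneurons were high, since cholinergic interneuron-like nuclei held 3040 ± 2168 CPM, and 2246 ± 585 CPM without control library 2. D1 and D2 MSN-like nuclei followed at 3512 ± 534 and 3401 ± 485 CPM. That difference was small but had the same sign in every library, since the ratio of D2 to D1 was 0.951 to 0.987. DTHD1/GPC3 astrocyte-like (3133 ± 426 CPM), astrocyte-like (2769 ± 563 CPM), OPC-like (2725 ± 222 CPM) and eccentric MSN-like nuclei (2701 ± 393 CPM) could not be put in order beyond their spread. The last classes were separate from one another, with 1879 ± 273 CPM in neuroblast-like, 1007 ± 156 CPM in oligodendrocyte-like and 99.5 ± 57.6 CPM in microglia-like nuclei. The neuroblast range still overlapped that of eccentric MSN-like nuclei, although the latter were higher in 7 of 7 libraries. The oligodendrocyte level was 28.8% of the D1 level, above the yardstick, and the microglial level was 1.80% of it, under the yardstick.

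CADM1 and CADM2 both had their highest mean in astrocyte-like nuclei. For CADM1 the next class, cholinergic interneuron-like nuclei at 1497 ± 587 CPM, overlapped and was below it in 5 of 7 libraries. CADM1 stood there at 2216 ± 302 CPM and CADM2 at 1274 ± 253 CPM, and both exceeded their levels in D1 MSN-like and in DTHD1/GPC3 astrocyte-like nuclei in 7 of 7 libraries. The median ratio of astrocyte-like to DTHD1/GPC3 astrocyte-like nuclei was 2.04 for CADM1 (range 1.53 to 2.76) and 1.47 for CADM2 (range 1.14 to 2.03). In D1 MSN-like nuclei CADM1 held 1402 ± 185 CPM and CADM2 707 ± 103 CPM, and in D2 MSN-like nuclei 1260 ± 167 and 654 ± 96.6 CPM. PV/Th interneuron-like nuclei held less of both, 771 ± 86.7 CPM of CADM1 and 378 ± 38.8 CPM of CADM2, and neuroblast-like nuclei held 675 ± 135 and 170 ± 49.7 CPM. Oligodendrocyte-like nuclei had 342 ± 117 CPM of CADM1 (22.6% of the D1 level) and 75.7 ± 11.3 CPM of CADM2, and microglia-like nuclei had 144 ± 32.7 and 31.6 ± 12.9 CPM. The order of classes was therefore much the same for these 2 genes, with a Pearson r of 0.97 between their mean log2(CPM + 1) values over 11 classes.

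**Figure D1:**
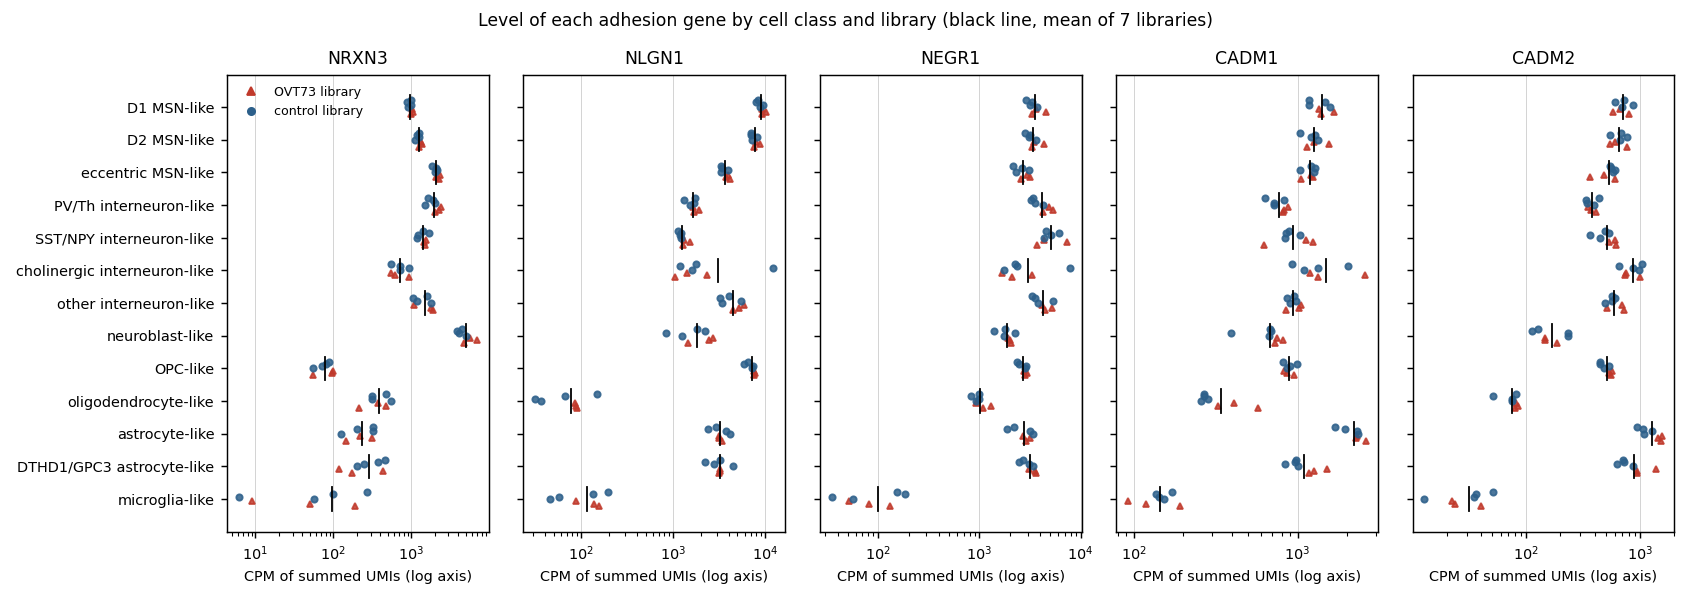
Level of each member in 13 cell classes, in CPM of summed UMIs on a log axis, with 1 point per library coloured by group and a line at the mean. NRXN3 peaks in neuroblast-like nuclei, NLGN1 in D1 and D2 MSN-like and OPC-like nuclei, and CADM1 and CADM2 in astrocyte-like nuclei, while microglia-like nuclei hold the lowest or next to lowest mean for all 5 genes.

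The step from OPC-like to oligodendrocyte-like nuclei split the members. NLGN1, CADM2, CADM1 and NEGR1 were higher in OPC-like nuclei in 7 of 7 libraries. For NLGN1 the median within-library ratio was 88.6 (range 44.4 to 235), for CADM2 6.92, for CADM1 3.06 and for NEGR1 2.92. NRXN3 ran the opposite way, with oligodendrocyte-like nuclei above OPC-like nuclei by a median ratio of 4.33 (range 3.85 to 9.93) in all 7 libraries. The 4 oligodendrocyte-like clusters were not alike for NRXN3. The cluster led by MMRN1 and ENPP6 (ENPP6 marks newly formed oligodendrocytes) held 101 ± 47.1 CPM, below the clusters led by OPALIN (438 ± 104 CPM), GHR (379 ± 103 CPM) and WDR72 (532 ± 178 CPM) in 7 of 7 libraries each. NRXN3 in the MMRN1 and ENPP6 cluster thus lay nearer to its OPC level than to that of the OPALIN cluster, which exceeded it by a median ratio of 4.65. CADM2 in these clusters was 37.5 ± 17.5, 96.5 ± 12.8, 70.4 ± 6.43 and 85.2 ± 16.4 CPM in the same order, while NEGR1 differed little, at 1067 ± 204, 964 ± 150, 971 ± 180 and 1080 ± 174 CPM.

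**Figure D2:**
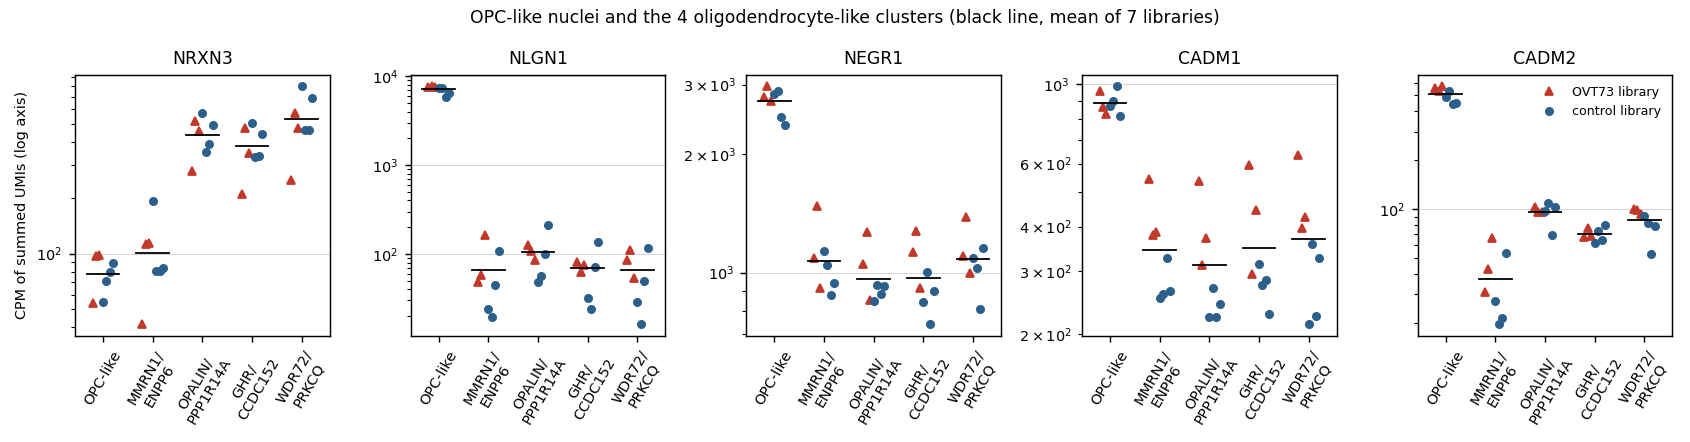
Level of each member, in CPM on a log axis, in OPC-like nuclei and in the 4 oligodendrocyte-like clusters, with 1 point per library coloured by group and a line at the mean of 7 libraries. NRXN3 is higher in the OPALIN, GHR and WDR72 clusters than in OPC-like nuclei in all 7 libraries, and NLGN1 goes from 7119 CPM in OPC-like nuclei to levels at or under the MSN yardstick.

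The D2 MSN-like class held 2 clusters that differed in several members. In the smaller one, 231 nuclei led by ALK and NTNG1, NRXN3 was above its level in the larger one, 2037 nuclei led by HS3ST4 and CNTN5, in 7 of 7 libraries (1700 ± 261 against 1197 ± 71.9 CPM). NLGN1 (median ratio 0.759), NEGR1 (0.85) and CADM1 (0.750) were lower in the smaller cluster in 7 of 7 libraries. ALK and NTNG1 also led the eccentric MSN-like cluster, which showed more NRXN3 and less NLGN1 than D1 MSN-like nuclei in every library as well.

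The genes whose class means were most like each member's over the 11 classes were named by Pearson r among 8196 genes, as a description of classes that share libraries. For NRXN3 they were GAD1, which makes GABA (r = 0.92), MARCHF4 (0.91) and SEZ6L2 (0.91). For NLGN1 they were ADGRB3, an adhesion receptor (0.98), RPH3AL (0.95) and UNC79 (0.94), and for NEGR1 they were RIC3 (0.98), TDRD12 (0.97) and LRRC4B, a synaptic adhesion gene (0.96). CADM1 and CADM2 named each other and RORA, a nuclear receptor (0.96 and 0.97), followed by TMEM38A for CADM1 (0.96) and SBSN for CADM2 (0.96). The other members of the 4 families differed in their own orders. OPCML, an IgLON like NEGR1, held 8614 ± 541 CPM in PV/Th interneuron-like nuclei and 1498 ± 154 CPM in D1 MSN-like nuclei, and LSAMP, another IgLON, held 5929 ± 1256 CPM in neuroblast-like nuclei. NLGN2 and NLGN3, the other neuroligins measured, had class means of 0.298 to 6.53 and 1.88 to 20.8 CPM, and CADM3 and CADM4 had 29.1 to 147 and 3.79 to 32.3 CPM.

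For OVT73 against control, UMIs were summed per library and class, scaled by TMM factors and tested over all genes of a class with edgeR's quasi-likelihood test, with Benjamini-Hochberg adjustment and a threshold of 0.05. No member passed in any class (0 of 55 member and class pairs), the lowest edgeR adjusted p being 0.547. The tests called almost nothing of any kind: of 4569 to 12394 genes tested per class, 0% were called in 9 classes, 0.0111% in OPC-like and 0.0133% in eccentric MSN-like nuclei, which is 1 gene in each of these 2. At an unadjusted p under 0.05, edgeR gave 113 to 613 genes per class and 13 of the 55 pairs, and DESeq2 called 0 to 9 genes per class at its adjusted p, among them 1 pair. The pairs leaned to the OVT73 side. The log2 fold change was above 0 in 45 of 55 pairs, beside 44.3 to 48.8% of all genes tested, and its median over the pairs was 0.23, beside −0.03 to −0.01 for all genes. Without TMM factors these became 0.15 and −0.13 to −0.01. In 13 pairs all OVT73 libraries lay above all control libraries, and in 0 pairs below, beside 1.98 to 4.02% of all genes per class whose OVT73 libraries all lay below. Without TMM factors 8 pairs lay above, of which NRXN3 in PV/Th interneuron-like nuclei was not among the 13. With 1 library left out the count was 12 to 21. It was highest without OVT73 library 1 (21), OVT73 library 3 (20) or control library 2 (20). Every such run had fewer libraries to separate, and why the counts differed between runs was not tested. The share of all genes was not counted under these settings, so these counts have no background to be set against. Pairs of 1 gene in several classes come from the same 7 libraries and are not independent. The study had reported NRXN3 with NLGN1, NEGR1 with itself and CADM1 with itself among ligands and receptors whose inferred signalling rose most in OVT73 MSNs. That report rests on the same libraries, and the members were chosen with it known. The lean to the OVT73 side is therefore not an independent result.

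The background for these 13 pairs is the percentage of all genes in the same class whose OVT73 libraries all lay above the controls. It was 2.76% in D1 MSN-like, 3.06% in D2 MSN-like, 3.85% in eccentric MSN-like, 2.87% in PV/Th interneuron-like, 1.61% in other interneuron-like, 2.69% in neuroblast-like, 4.25% in OPC-like, 3.41% in oligodendrocyte-like, 2.77% in astrocyte-like, 2.81% in DTHD1/GPC3 astrocyte-like and 2.84% in microglia-like nuclei. Of the 5 members, this held for 2 each in eccentric MSN-like, PV/Th interneuron-like, OPC-like, oligodendrocyte-like and DTHD1/GPC3 astrocyte-like nuclei, for 1 each in D2 MSN-like, neuroblast-like and astrocyte-like nuclei and for 0 in the others. By gene, it held for CADM1 and CADM2 in 4 classes each, NLGN1 and NRXN3 in 2 each and NEGR1 in 1. When the group labels were permuted in all 35 possible ways (exact two-sided permutation test), 4 pairs reached 0.029, the smallest p this design allows, and after adjustment over the 55 pairs the lowest value was 0.262. So few pairs at the smallest possible p could not pass this adjustment, so the adjusted values decide nothing about them.

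**Figure D3:**
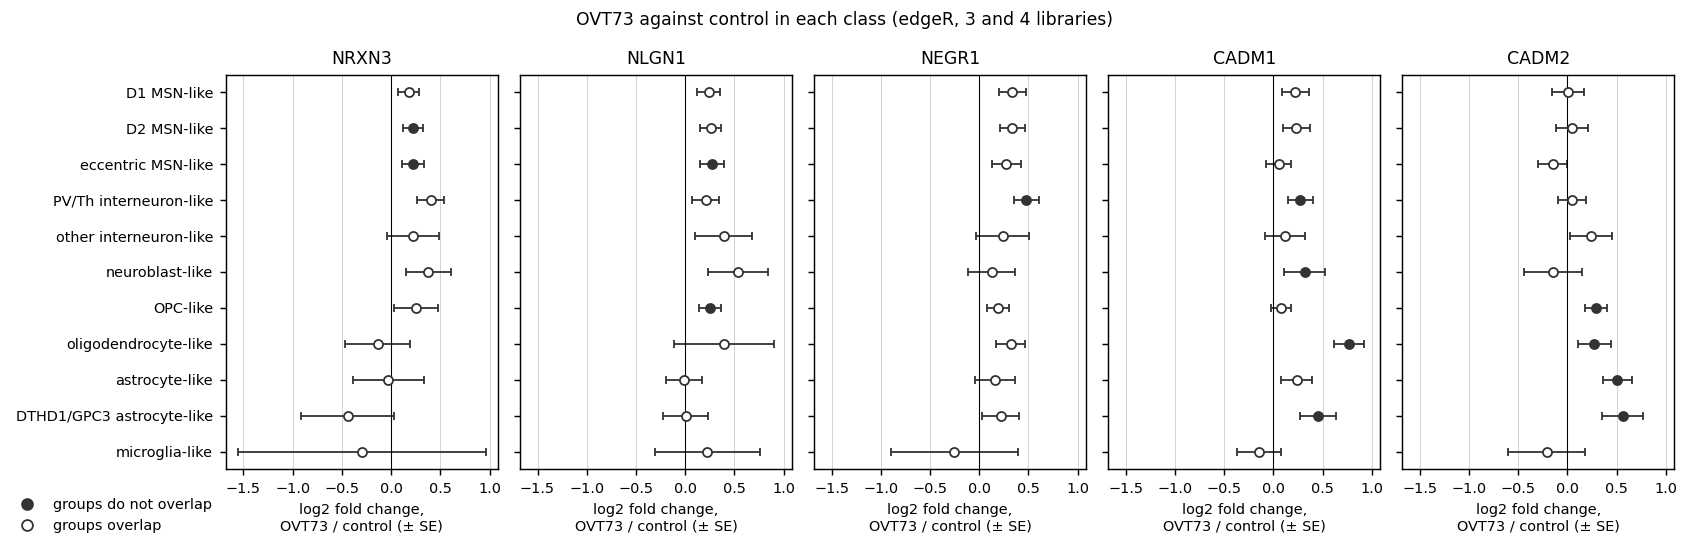
Log2 fold change of OVT73 against control for each member in 11 cell classes, from edgeR, with bars of ± 1 SE, n = 3 against 4 libraries. Filled circles mark the 13 pairs whose OVT73 libraries all lie above all controls, and 45 of the 55 points lie right of 0, with no pair past the adjusted threshold.

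CADM1 in oligodendrocyte-like nuclei had the largest fold change of the 13. Its normalized CPM was 586, 354 and 412 in OVT73 libraries 1 to 3 and 257, 290, 251 and 263 in control libraries 1 to 4, so OVT73 library 1 stood well above the others and the groups did not overlap. In the study's library statistics, OVT73 library 1 had the largest share of reads on the transcriptome and the smallest share antisense to genes. The part of this in the CADM1 value was not tested. The log2 fold change was 0.77 (SE 0.16), with an edgeR adjusted p of 0.833, a DESeq2 adjusted p of 0.044 and an exact permutation p of 0.029 (0.262 adjusted). Leaving out each library in turn gave 0.53 to 0.92, the lowest without OVT73 library 1. Within the 4 clusters, a split chosen after the values were seen, the log2 ratio of the group means was 0.76 in the OPALIN, 0.69 in the GHR, 0.79 in the WDR72 and 0.66 in the MMRN1 and ENPP6 cluster, and the groups overlapped in the GHR cluster only. The summed oligodendrocyte markers, 11 of 11 detected, were 7598 to 8550 CPM in OVT73 and 8667 to 10741 CPM in controls, which did not overlap, while the summed MSN, astrocyte and OPC markers overlapped between the groups; the part of the former in the CADM1 difference was not tested. CADM2 in the same nuclei was 80.9, 91.3 and 82.3 against 75.5, 76.6, 48.2 and 80.5 normalized CPM, a narrow separation (log2 0.27, SE 0.17, edgeR adjusted p 0.874) that was lost without TMM factors. NEGR1 and NLGN1 had log2 fold changes of 0.32 (SE 0.15) and 0.40 (SE 0.51) and NRXN3 one of −0.14 (SE 0.33), all with overlapping groups.

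Both astrocyte classes held more CADM2 in each OVT73 library than in any control. In astrocyte-like nuclei CADM2 was at 1618, 1556 and 1656 normalized CPM in OVT73 and at 1129, 1355, 1093 and 970 in control libraries. In DTHD1/GPC3 astrocyte-like nuclei it was at 1017, 1026 and 1469 against 933, 676, 807 and 759. The separation was wide in the former class, where the OVT73 libraries lay close together, and rested on a narrow gap to control library 1 in the latter. The log2 fold changes were 0.51 (SE 0.15) and 0.56 (SE 0.21), with edgeR adjusted p values of 1.00 and 0.999. CADM1 in DTHD1/GPC3 astrocyte-like nuclei was 1264, 1367 and 1596 against 1089, 905, 1072 and 1041 (log2 0.45, SE 0.18, edgeR adjusted p 0.999), again with no overlap. In astrocyte-like nuclei CADM1 was 2759, 2465 and 2413 against 2436, 2464, 2008 and 1751, which overlapped (log2 0.24, SE 0.16). NLGN1, by contrast, had log2 fold changes of −0.01 (SE 0.18) and 0.005 (SE 0.23) in these classes, and its control libraries spread from 2446 to 4262 in the former and from 2495 to 4807 in the latter. Astrocyte-like nuclei numbered 182 to 337 per OVT73 and 36 to 117 per control library, with median UMIs of 3603.5 to 4380 and 3018 to 3450. DTHD1/GPC3 astrocyte-like nuclei numbered 149 to 358 and 73 to 114. The part of these differences in the CADM2 and CADM1 values was not tested.

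In OPC-like nuclei CADM2 and NLGN1 lay above all controls, CADM2 only with TMM factors. CADM2 was 580, 577 and 584 against 482, 549, 417 and 446 normalized CPM, with the OVT73 libraries nearly equal (log2 0.29, SE 0.11, edgeR adjusted p 0.691). NLGN1 was 7901, 8340 and 7714 against 7183, 7602, 5532 and 6475, with a gap of little width to control library 2 (log2 0.25, SE 0.11, edgeR adjusted p 0.727). In these nuclei the summed OPC markers were 16453 to 17951 CPM in OVT73 and 15462 to 16229 CPM in controls, and the summed astrocyte and MSN markers were lower in every OVT73 library (512 to 533 against 542 to 598 CPM, and 178 to 198 against 201 to 242 CPM); the part of these shifts was not tested.

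PV/Th interneuron-like nuclei gave the clearest NEGR1 difference. NEGR1 was 4431, 5924 and 5130 normalized CPM in OVT73 and 4315, 3732, 3261 and 3521 in control libraries, which did not overlap although OVT73 library 1 and control library 1 lay close. The log2 fold change was 0.48 (SE 0.13), the edgeR adjusted p 0.547 and the exact permutation p 0.029 (0.262 adjusted). Leaving out each library gave 0.37 to 0.59. At clustering resolution 0.6, where the other interneuron-like class was not separate, it was 0.27 (edgeR adjusted p 1.00), and with no filter on low counts it was 0.54 (edgeR adjusted p 0.034). CADM1 was 843, 922 and 921 against 728, 759, 830 and 648, with no overlap unless TMM factors were dropped (log2 0.27, SE 0.13, edgeR adjusted p 0.865). NRXN3 had a log2 fold change of 0.40 (SE 0.14) at 2115, 2511 and 2555 against 1510, 2151, 1930 and 1663, where OVT73 library 1 fell below control library 2, an overlap that was absent without TMM factors. This class rested on 25 to 65 nuclei per library. In the other interneuron-like class all 5 members had log2 fold changes above 0 (0.12 to 0.39) and all overlapped between groups.

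In the MSN classes the separations were narrow. NRXN3 in D2 MSN-like nuclei was 1309, 1463 and 1330 against 1077, 1270, 1087 and 1268 normalized CPM (log2 0.22, SE 0.10, edgeR adjusted p 0.912). In eccentric MSN-like nuclei NRXN3 was 2368, 2249 and 2414 against 1984, 2173, 2008 and 1863 (log2 0.22, SE 0.12, edgeR adjusted p 0.719), and NLGN1 was 4347, 4105 and 4148 against 3251, 4000.2, 3306 and 3344 (log2 0.27, SE 0.12, edgeR adjusted p 0.665). All 3 separated, the last with control library 2 far above the other controls, and all 3 overlapped when TMM factors were dropped. In D1 MSN-like nuclei no member separated, although all 5 log2 fold changes were above 0 (0.01 to 0.34). OVT73 library 2 held the highest NEGR1 value in both the D1 and the D2 class, at 4858 and 4664 normalized CPM, with the other OVT73 libraries at 3445 to 3651 and the controls at 2807 to 3584. CADM2 differed little in D1 and D2 MSN-like nuclei, with log2 fold changes of 0.01 (SE 0.16) and 0.05 (SE 0.16).

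Among the remaining classes, CADM1 in neuroblast-like nuclei was 794, 910 and 808 against 728, 478, 714 and 749 normalized CPM, with no overlap (log2 0.32, SE 0.21, edgeR adjusted p 1.00). NRXN3, highest in this class, was 5140, 7725 and 6063 against 5465, 4971, 4010 and 4937, where OVT73 library 1 fell below control library 1 (log2 0.38, SE 0.23). Microglia-like nuclei, in which NLGN1 and NEGR1 were under the MSN yardstick, showed no separation for any member, with 4 of 5 log2 fold changes under 0.

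**Figure D4:**
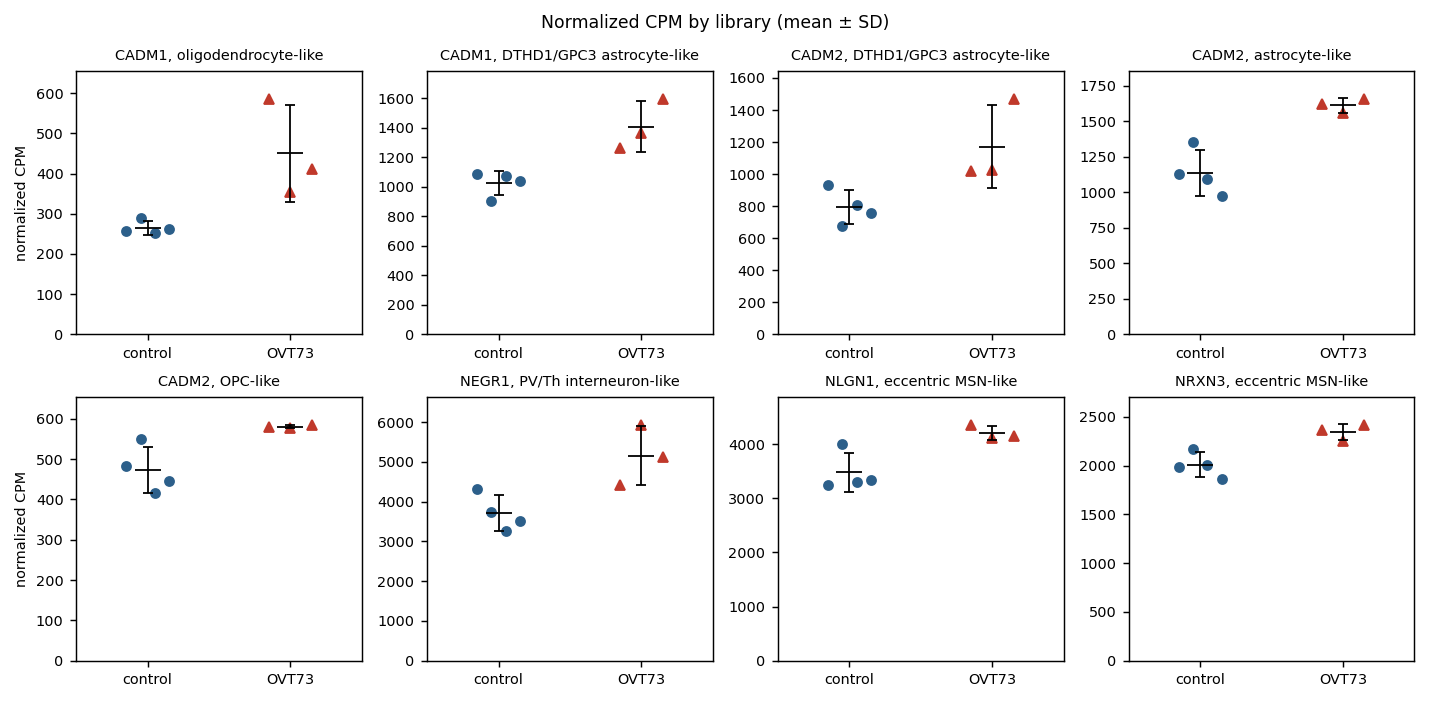
Normalized CPM in each of the 3 OVT73 and 4 control libraries for 8 of the 13 pairs whose groups did not overlap, chosen after the values were seen, with the group mean ± SD. CADM2 in astrocyte-like nuclei lies at 1556 to 1656 in OVT73 and at 970 to 1355 in controls, and CADM1 in oligodendrocyte-like nuclei shows OVT73 library 1, at 586, far above the others.

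Whether the difference between groups was itself unlike between classes was tested for D2 MSN-like nuclei against 5 other classes, 25 tests in all, on the log2 ratio of the classes within each library. One test had an exact permutation p under 0.05 and 0 passed after adjustment, the lowest adjusted p being 0.714. That test was NEGR1 in D2 MSN-like against PV/Th interneuron-like nuclei, where the log2 ratio was −0.41 ± 0.10 in OVT73 and −0.26 ± 0.08 in controls (SD, n = 3 and 4), a difference of −0.15 with an exact permutation p of 0.029. For CADM2 in D2 MSN-like against astrocyte-like nuclei the difference was −0.47 (exact permutation p 0.086), and for CADM1 in D2 MSN-like against oligodendrocyte-like nuclei it was −0.51 (exact permutation p 0.143). The smallest p this design allows is 0.029, so a test that reached it alone could not pass after adjustment over 25 tests. Whether the OVT73 effect on a member differed between D2 MSN-like nuclei and these 5 classes could therefore not be decided at this number of libraries.

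The wider adhesion lists, 60 genes of which 56 were in the files, gave no called gene in any class. They hold relatives of the members, neurexin ligands, LAR-type phosphatases with their ligands, neuroligin regulators and scaffolds. In D1 MSN-like nuclei 26 of 48 tested list genes had a log2 fold change above 0, in D2 MSN-like nuclei 33 of 48, in OPC-like nuclei 29 of 43, in PV/Th interneuron-like nuclei 28 of 35, in oligodendrocyte-like nuclei 21 of 37 and in astrocyte-like nuclei 14 of 28. Their medians were 0.04, 0.09, 0.13, 0.12, 0.06 and −0.003, beside −0.03 to −0.01 for all genes. In the remaining classes the counts were 25 of 36 in eccentric MSN-like, 23 of 37 in other interneuron-like, 10 of 25 in DTHD1/GPC3 astrocyte-like, 9 of 21 in microglia-like and 6 of 24 in neuroblast-like nuclei. By list, neurexin ligands had medians of −0.02, 0.09, 0.12, 0.17, 0.02 and −0.76 in the first 6 classes and LAR-type phosphatases with their ligands −0.04, 0.10, 0.08, 0.10, 0.31 and −0.06, in the same order. The neuroligin regulators had 0.08, 0.04, 0.18, 0.19, −0.74 and −0.04. The scaffold list, which holds DLG4, SHANK and gephyrin genes, had 0.08, 0.11, 0.19, 0.13, 0.06 and 0.02.

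List genes with OVT73 libraries above all controls numbered 4 of 43 in OPC-like, 5 of 35 in PV/Th interneuron-like, 4 of 36 in eccentric MSN-like, 2 of 37 in oligodendrocyte-like and 1 of 28 in astrocyte-like nuclei, beside 4.25%, 2.87%, 3.85%, 3.41% and 2.77% of all genes. Among the 48 tested in each main MSN type, 4 did so in the D1 and 5 in the D2 type, beside 2.76% and 3.06% of all genes. None of them passed the test. LRRTM3, a postsynaptic neurexin ligand, was 1326 ± 113 against 1078 ± 88.8 normalized CPM in D1 (log2 0.30, edgeR adjusted p 0.943) and 1393 ± 75.6 against 1108 ± 97.7 in D2 MSN-like nuclei (log2 0.33, edgeR adjusted p 0.912). NXPH1, a secreted neurexin ligand, was 6099 ± 953 against 4771 ± 362 in PV/Th interneuron-like nuclei (log2 0.35, edgeR adjusted p 0.771). Of the IgLON relatives of NEGR1, LSAMP in astrocyte-like nuclei was 5005 ± 540 against 3914 ± 238 (log2 0.35, edgeR adjusted p 1.00). PTPRD, a phosphatase receptor of the LAR type, was 4715 ± 583 against 3818 ± 195 in oligodendrocyte-like nuclei (log2 0.30, edgeR adjusted p 0.874). Lower values in OVT73 with no overlap were found for 1 list gene each in D1 MSN-like (CADM4), PV/Th interneuron-like (IL1RAP) and astrocyte-like nuclei (ADGRL2, 10.5 ± 1.76 against 43.9 ± 27.6 normalized CPM), beside 2.43%, 3.07% and 2.49% of all genes. All group values here are means ± SD of 3 OVT73 and 4 control libraries.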

How the data were processed

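Single nuclei RNA of the anterior striatum was sequenced in 7 libraries (10x Genomics 3′ chemistry). The deposited files hold raw UMI counts per feature and barcode, made by the authors with Cell Ranger 7.0.0 and, by the submitters' processing notes, STAR 2.7.2a on Oar_rambouillet_v1.0 with an added human HTT feature. The study's methods do not state whether intronic reads were counted. In its library statistics more reads mapped to the transcriptome than to exonic regions in every library, so intronic reads were counted. The study split pooled barcodes by genotype and tested nuclei with MAST; here the library was the replicate.

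Nuclei with 200 to 7500 genes and at most 5% mitochondrial UMIs were kept, and 4% per library with the highest doublet score were removed (1358 nuclei), since the caller's own threshold called few. Nuclei were clustered on 3000 variable genes without the members and list genes (30 components, 20 neighbours, resolution 1.0, libraries integrated) and named from marker lists when at least 3 markers and 0.4 of a list were raised by 1.0 on the log2 scale. Classes with at least 10 nuclei in every library were tested: SST/NPY and cholinergic interneuron-like nuclei were not. Summed counts were fitted with edgeR 4.0.16 (filterByExpr, TMM, quasi-likelihood test) and, as an alternative, DESeq2 1.42.0. Steps were tested on simulated data. For the comparison of groups, names were drawn from the 5 members and, per class, from the 2 family genes with the smallest p. At most 3 other list genes per class with no overlap between groups could be added. Only some of these family and list genes are given. For likeness, the 3 genes most like each member were named, among genes with at least 20 CPM in some class. The members and lists were chosen with earlier results of these data known. The list symbols NLGN4X, NTM and SHANK3 were not analysed here, and some list genes are not reported here. Intervals on counts cover counting error only and are not given, since libraries carry the error.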

Additional observations from a re-analysis of the deposited data

Results flagged for a closer look

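In 4 of the 55 groups of 4 control libraries, 1 library stood far from the other 3, where chance flags about 1 in 20 such groups. Control library 2 was the one in 3 of them. CADM1 in eccentric MSN-like nuclei was 1059 normalized CPM in control library 2, with the others at 1220 to 1250. In neuroblast-like nuclei CADM1 was 478 in control library 2 and 714 to 749 in the others. NLGN1 in eccentric MSN-like nuclei was 4000.2 in control library 2 and 3251 to 3344 in the others. CADM2 in oligodendrocyte-like nuclei was 48.2 in control library 3 and 75.5 to 80.5 in the others.

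One difference between classes was past its unadjusted test: the log2 ratio of NEGR1 in D2 MSN-like to PV/Th interneuron-like nuclei was lower in OVT73 by −0.15 (exact permutation p 0.029, 0.714 after adjustment over 25 tests).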

How the results depend on the processing

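No member passed the edgeR threshold when TMM factors were dropped, numbers of nuclei were made equal, doublets were kept, clustering was changed or any single library was left out. With no filter on low counts 1 pair passed (NEGR1 in PV/Th interneuron-like nuclei), and with DESeq2 1 pair passed (CADM1 in oligodendrocyte-like nuclei). The count of pairs whose OVT73 libraries all lay above the controls, 13, was 8 without TMM factors and 12 to 21 with 1 library left out. The matching share of all genes was not counted for these settings. Of the 13, those that still separated without TMM factors were CADM1 in DTHD1/GPC3 astrocyte-like, neuroblast-like and oligodendrocyte-like nuclei, CADM2 in both astrocyte classes, NEGR1 in PV/Th interneuron-like and NLGN1 in OPC-like nuclei. Counts of all genes called moved with the tool and filter. With no filter they were 1 in D2 MSN-like, 6 in DTHD1/GPC3 astrocyte-like, 33 in OPC-like, 26 in PV/Th interneuron-like, 6 in astrocyte-like, 44 in eccentric MSN-like, 18 in microglia-like, 4 in neuroblast-like, 1 in oligodendrocyte-like and 11 in other interneuron-like nuclei. With DESeq2 they were 3 in D1 MSN-like, 5 in D2 MSN-like, 9 in OPC-like, 1 in astrocyte-like and 6 in oligodendrocyte-like nuclei. The 1 gene in OPC-like nuclei became 2 without TMM factors and 3 with equal numbers of nuclei, and the 1 gene in eccentric MSN-like nuclei became 0 under both. With 1 library left out the counts were 0 to 2 in OPC-like, 0 to 0 in eccentric MSN-like, 0 to 1 in D2 MSN-like, 0 to 1 in PV/Th interneuron-like, 0 to 1 in microglia-like, 0 to 2 in neuroblast-like and 0 to 1 in oligodendrocyte-like nuclei. The causes were not tested.

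Over all alternatives the sign of an uncalled log2 fold change turned 48 times and that of a class difference 29 times, and keeping doublets moved 0 levels by more than their spread. At resolution 0.6 there was no separate DTHD1/GPC3 astrocyte-like or other interneuron-like class, so 45 pairs remained. No paired analysis was possible because the labels carry no replicate numbers shared between groups. The 3 OVT73 libraries against 4 controls, small classes and low levels in microglia-like nuclei limit what could be detected. PV/Th interneuron-like nuclei numbered 25 to 65 per library and eccentric MSN-like nuclei 24 to 72. Control library 2 held 36 astrocyte-like and 45 neuroblast-like nuclei, against 337 and 488 in OVT73 library 1.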

Other observations

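Classes with too few nuclei for the comparison of groups still gave levels. In cholinergic interneuron-like nuclei, 60 in all and 4 to 14 per library, NLGN1 was 12285 CPM and NEGR1 7806 CPM in control library 2, and without that library the means were 1560 ± 457 and 2246 ± 585 CPM (SD, n = 6). In SST/NPY interneuron-like nuclei, 108 in all, NEGR1 ranged from 3735 to 7270 CPM over the libraries.

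The microglia-like class held a small cluster led by CD163 and MSR1, markers of macrophages. NRXN3 there averaged 971 ± 859 CPM over 4 libraries with values of 0 to 1954 CPM, against 25.1 ± 19.0 CPM in the main microglia-like cluster led by CALCR and LRMDA. CADM1 (568 ± 134 against 119 ± 23.2 CPM), NEGR1 (493 ± 285 against 69.3 ± 45.4) and NLGN1 (332 ± 244 against 98.4 ± 42.9) also had higher means there. CADM2 did not (28.0 ± 35.4 against 31.5 ± 12.1 CPM). Doublets, removed before these levels, were 15.5% of the small and 1.0% of the main cluster. The part of any doublets left was not tested.

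Single libraries recurred at the extremes of the members. OVT73 library 2 had the highest normalized CPM of NEGR1 in 6 of 11 classes and of NRXN3 and CADM1 in 5 each. Control library 3 had the lowest value of NLGN1, NEGR1 and CADM2 in 6 of 11 classes each. By the study's library statistics it had the smallest share of reads on the transcriptome and the largest share antisense to genes. The part of this in its low values was not tested.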
